A study of Mus musculus with 9 samples.

Results

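Complement is a set of blood and tissue proteins that tags microbes and dying cells for uptake. The transcripts described here, from cells sorted as macrophages of mouse visceral fat, encode 9 complement proteins: the C1q chains C1qa, C1qb and C1qc, the later components C3, C4b, Cfb and Cfp, and the receptors C3ar1 and C5ar1. They were taken by gene symbol, and all 9 were among the 14905 genes of the deposited table. RNA was sequenced from sorted cells positive for F4/80 and CD11b, in 5 libraries labelled Nucb2-/- (KO) and 4 labelled wild type (WT), with C57BL/6 as the strain of both. The product of Nucb2, nucleobindin-2, binds calcium and is the precursor of nesfatin-1. The labels name no promoter, Cre driver or cell type for the loss of Nucb2, and the sample labels do not give diet, age or sex. The title of the series speaks of obesity and the name of the deposited table carries the letters HFD, a usual short form of high-fat diet, so all libraries may share such a diet, which the sample labels do not state. Replicates are numbered there but not tied to separate mice, so a p-value here speaks of the spread among libraries, some of which may be technical. Values after ± are SDs.

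As background, the classical pathway starts when C1q, built from A, B and C chains in equal number, binds an antibody or a cell surface and activates the proteases C1r and C1s. These cleave C4 and C2, and the product cleaves C3, the protein on which the pathways meet. The alternative pathway uses factor B (Cfb) and is held together by properdin (Cfp). The fragments C3a and C5a signal through the receptors encoded by C3ar1 and C5ar1. Most plasma complement is made in the liver, whereas tissue macrophages are a main source of C1q, and myeloid cells make properdin.

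The spacing of the values gave library totals of 74937721 to 85200101 reads in 6 deeper libraries (KO replicates 1, 2, 3 and 4 with the first pair of WT replicates) and of 51148956 to 55004978 reads in 3 shallower ones (KO replicate 5 with the last pair of WT replicates). The targeted gene went with the labels: Nucb2 had 1500 ± 219 normalized counts in KO libraries, against 4313 ± 791 in WT libraries (SD, n = 5 and 4; limma adjusted p = 0.00054). The exact permutation test, two-sided, put it at p = 0.0159, which is as small as this design allows. Adgre1, which encodes F4/80, had 91199 ± 5643 normalized counts in KO libraries, against 106114 ± 8809 in WT libraries (SD, n = 5 and 4), and Itgam, which encodes CD11b, had 23739 ± 1945 in KO libraries, against 20943 ± 1097 in WT libraries. The fibroblast gene Dcn had 249667 ± 44462 in KO libraries, against 183147 ± 43786 in WT libraries, and 10 of 10 fibroblast markers were in the table. In bulk RNA, fewer cells of a type and less RNA per cell cannot be told apart.

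The 3 C1q genes lie side by side on the minus strand of chromosome 4 (mm10): C1qa from 136895917 to 136898803, C1qc from 136889804 to 136893065 and C1qb from 136880129 to 136886187. Their levels varied together between libraries, as described below, so the bases before the start sites of C1qb and C1qc are shown. The sequences are RefSeq's on GRCm38.p6, read 5′ to 3′ along the gene; 6 of the 9 genes matched an entry. For C1qb they are the 250 bases before the RefSeq start. For C1qc the RefSeq and GENCODE starts differ, and 151 of the 250 bases lie inside the GENCODE gene given above, so the 99 bases before both starts are shown. Capitals mark matches, on either strand, to the PU.1 core GAGGAA.
C1qb, chr4:136886201-136886450, minus strand: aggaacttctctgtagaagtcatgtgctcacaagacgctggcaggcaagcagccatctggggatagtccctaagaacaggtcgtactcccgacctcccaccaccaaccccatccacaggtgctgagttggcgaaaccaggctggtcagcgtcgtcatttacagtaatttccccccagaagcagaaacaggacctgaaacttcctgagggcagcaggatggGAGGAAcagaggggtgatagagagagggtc
C1qc, chr4:136893066-136893164, minus strand: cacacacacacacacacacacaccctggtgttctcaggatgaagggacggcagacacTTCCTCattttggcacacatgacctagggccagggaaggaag

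Both stretches held 1 PU.1 core. In C1qb it began at base -30 from the RefSeq start site, on the strand of the gene, and in C1qc at base -193, on the other strand. A PU.1 core occurs in 23.3% of 32851 RefSeq windows of 250 bases, and in 9.91% of the same windows over the 99 bases that correspond to the C1qc stretch. Among the windows of the 6 genes with an entry, only those of C1qb and C1qc held a PU.1 core. A C/EBP site, TTNNGNAA, was searched as well and occurs in 36.8% of the RefSeq windows. It matched in the 250 bases of C1qc, C5ar1 and C3, and in neither stretch shown. The matches describe letters, not bound sites.

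Between KO and WT, C1qa and C1qc separated the groups most among the 9 genes, both lower in each KO library, and 0 of the 9 passed an adjusted p of 0.05 in limma, where 0.309% of all genes did. At an unadjusted p under 0.05, 3 of the 9 were lower in KO (the C1q chains, against 3.78% of all genes) and 2 were higher (C3 and C4b, against 5.37%). This balance depended on the scaling: with quantile normalization, and likewise with equal totals without Rn45s, 2 were lower (C1qa and C1qc) and 4 higher (C3, C4b, Cfp and C5ar1). In the 6 deeper libraries alone, C1qa and C1qc were lower and 0 were higher, and 0 were higher without KO replicate 4 or 5 or without WT replicate 2 or 4. With limma-voom, run on reads rebuilt from the spacing of the values with those at the floor taken as 0, 0 passed; the floor keeps these from being the original counts. Fold changes and log2 differences are on the scale of the normalized count plus 1. Counts of genes above 0 given below stand beside 7809 of the 14905 genes of the table.

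C1qa, the A chain, had 19938, 24964, 24525, 30965 and 25836 normalized counts in KO replicates 1 to 5, against 32475, 36267, 33534 and 39274 in WT replicates 1 to 4. Each KO library lay below each WT library. The mean in KO was 71.3% of that in WT (25246 ± 3932 against 35388 ± 3044, SD, n = 5 and 4), and the log2 difference was -0.50 (SE 0.11, 95% interval -0.72 to -0.27; limma adjusted p = 0.067). It was -0.47 within the 6 deeper libraries and -0.49 within the 3 shallower ones (1 KO against 2 WT).

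C1qc, the C chain, had 28482, 33550, 31792, 40132 and 33376 normalized counts in KO, against 42168, 44571, 40568 and 46726 in WT. The ranges again did not overlap, although KO replicate 4 lay closer to the lowest WT library than the SD of WT. The log2 difference was -0.39 (SE 0.09, 95% interval -0.58 to -0.19; limma adjusted p = 0.095), at -0.38 in both depth classes. C1qa and C1qc were the 2 of 9 genes whose ranges were apart; 1.6% of all genes had KO below WT without overlap, and 1.55% had KO above WT.

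C1qb, the B chain, had 165070, 195474, 186916, 245482 and 192544 normalized counts in KO, against 206557, 220972, 228093 and 254001 in WT. KO replicate 4 lay among the WT libraries, and the other 4 KO libraries lay below them. Its log2 difference was -0.21 (SE 0.10, 95% interval -0.42 to -0.01; limma adjusted p = 0.52), with -0.12 in the deeper and -0.32 in the shallower libraries. Together the chains took 0.387% ± 0.058 of all normalized counts in KO libraries, against 0.439% ± 0.029 in WT libraries (SD, n = 5 and 4).

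**Figure D1:**
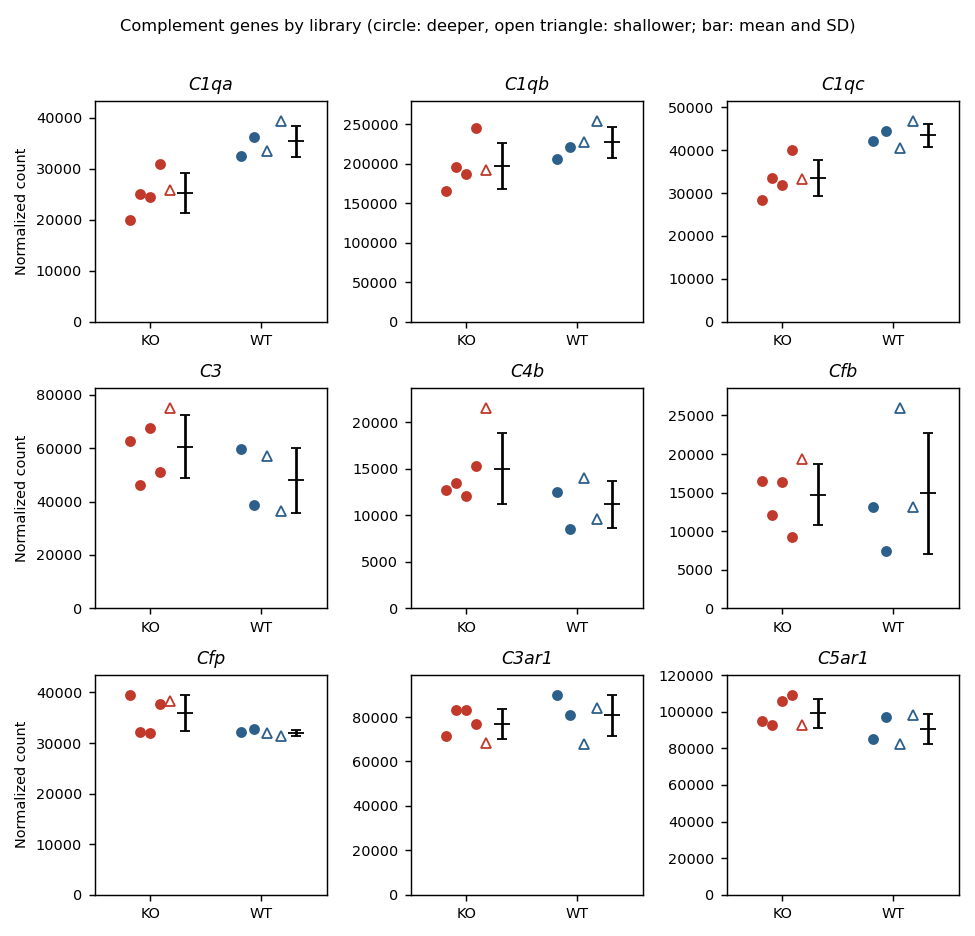
Normalized counts of the 9 complement genes, KO left of WT, 1 point per library (filled circles deeper, open triangles shallower libraries), with the group mean and SD as a bar. The KO and WT points of C1qa and C1qc do not overlap, and those of the other 7 genes do.

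The ratios of C1qb to C1qa and to C1qc were higher in each KO library than in each WT library. Per kilobase of exon, C1qb over C1qa was 7.91, 7.48, 7.29, 7.58 and 7.12 in KO, against 6.08, 5.82, 6.50 and 6.18 in WT. These ranges were apart, as were those of C1qb over C1qc (10.2 to 10.9 in KO, 8.69 to 9.98 in WT). C1qa over C1qc overlapped narrowly, at 1.30 to 1.44 in KO and 1.43 to 1.56 in WT. The ratios were chosen after their values were seen and carry no test. How many pairs of genes in the table have ratios apart was not counted. Other ratios computed, C4b over C3, Cfb over C3 and C5ar1 over C3ar1, overlapped between the groups.

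**Figure D2:**
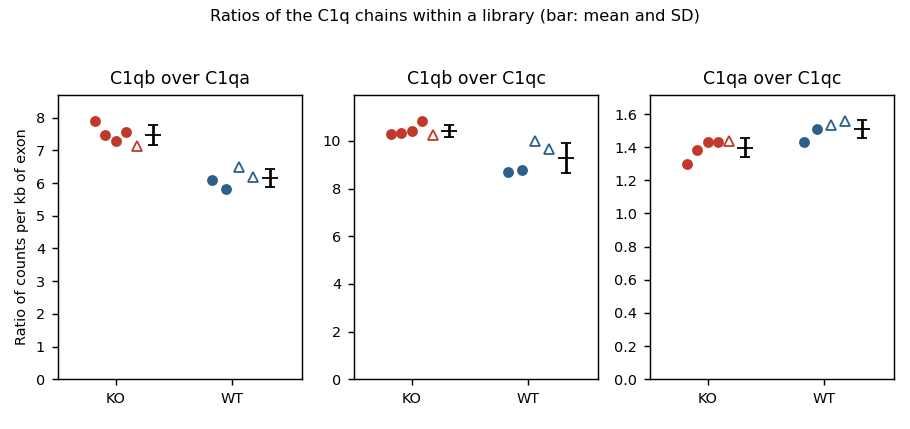
Ratios of C1q chain counts per kilobase of exon in each library, KO left of WT, with the group mean and SD (filled circles deeper, open triangles shallower libraries). C1qb over C1qa lies between 7.12 and 7.91 in KO and between 5.82 and 6.50 in WT.

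The chains varied together among libraries of the same group. After each group's mean was taken off, Pearson's r of the log2 values over the 9 libraries was 0.969 for C1qa with C1qc, 0.946 for C1qa with C1qb and 0.925 for C1qb with C1qc. KO replicate 1 was the lowest of the KO libraries for all 3 and KO replicate 4 the highest, and WT replicate 4 was the highest of the WT libraries. Of 10904 genes compared, 20 had r over 0.9 with C1qa, 11 with C1qb and 17 with C1qc, so the values describe likeness among few libraries of unequal depth, with no test. The closest genes outside the family were Cox10, which encodes a factor of cytochrome oxidase assembly (r = 0.995 with C1qa and 0.964 with C1qc), and Camk1, a calmodulin-dependent kinase (0.947 with C1qa). For C1qb they were Plekhg5 (0.948) and Uhrf1bp1l (0.938), and for C1qc Slc6a6, the taurine transporter (0.957).

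**Figure D3:**
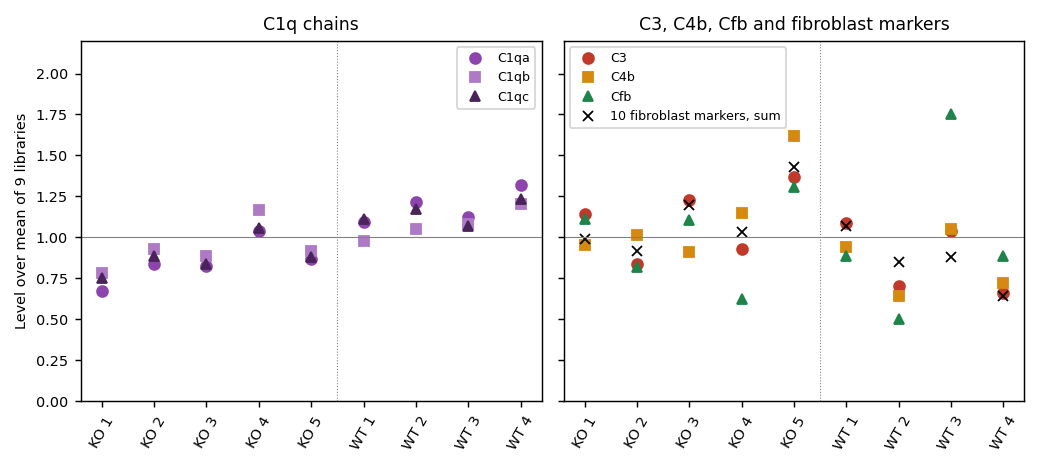
Level in each library over the mean of the 9 libraries, KO replicates left of WT replicates, for the C1q chains (left panel) and for C3, C4b, Cfb and the sum of 10 fibroblast markers (right panel). The C1q chains keep close to each other in each library, and Cfb in WT replicate 3 is the highest point on the right.

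Of 8 transcription factors reported to drive C1q, 0 passed in limma; 1, Irf8, had an unadjusted p under 0.05. Irf8, a factor of myeloid development, had 2834, 3520, 3546, 4275 and 3106 normalized counts in KO, against 3639, 4776, 8077 and 5763 in WT. WT replicate 3 was the highest, and KO replicate 4 overlapped WT (log2 difference -0.64, SE 0.19; limma adjusted p = 0.23), at -0.25 in the deeper and -1.14 in the shallower libraries. Nr1h3, the liver X receptor alpha, differed by -0.31 (adjusted p = 0.61; -0.06 deeper and -0.9995 shallower). Ppard, a lipid-sensing receptor, and Cebpa, a myeloid factor, had adjusted p = 0.73 and 0.74. Macrophage markers gave no common direction beside the C1q chains, with 6 of 12 above 0 and 6 below. Their summed level was 1366310 to 1581990 in KO and 1374410 to 1537470 in WT, most of it from Lyz2 (809546 ± 58683 in KO and 825447 ± 48939 in WT). Of the 12 markers, 2 were lower in KO at an unadjusted p under 0.05 in limma (Adgre1, log2 difference -0.22, adjusted p = 0.28, and Fcgr1) and 1 was higher (Itgam). Among them Fcgr1, an Fc receptor, had KO and WT ranges apart, at 10015 ± 1208 in KO libraries, against 14253 ± 2765 in WT libraries (SD, n = 5 and 4; limma adjusted p = 0.12), with a log2 difference of -0.27 in the deeper and -0.86 in the shallower libraries.

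C3, the central component, pointed the other way from C1q. It lies on chromosome 17 from 57203970 to 57228136 (mm10) and had 62835, 46170, 67631, 51167 and 75140 normalized counts in KO, against 59859, 38681, 57087 and 36483 in WT. The groups overlapped, with 3 KO libraries above the highest WT library and WT replicates 2 and 4 below all KO libraries. Its log2 difference came to 0.35 (SE 0.16, 95% interval 0.01 to 0.69; limma adjusted p = 0.53), at 0.23 in the deeper and 0.72 in the shallower libraries.

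C4b, which encodes complement C4, lies on the same chromosome from 34728380 to 34743882. It had 12724, 13516, 12096, 15261 and 21564 normalized counts in KO, against 12519, 8566, 13980 and 9599 in WT. KO replicate 5 was the highest and the groups overlapped. On the log2 scale it differed by 0.42 (SE 0.17, 95% interval 0.07 to 0.78; limma adjusted p = 0.43), at 0.37 in the deeper and 0.90 in the shallower libraries. Its near copy C4a had 66.9 ± 17.2 normalized counts in KO libraries, against 72.9 ± 78.3 in WT libraries (SD, n = 5 and 4), and how reads shared by such copies were counted is not given in the sources used here.

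Cfb, the protease of the alternative pathway, lies from 34856374 to 34862518 on chromosome 17, where it overlaps the annotated gene Gm20547, so its reads may be shared. It had 16464, 12142, 16377, 9258 and 19369 normalized counts in KO, against 13146, 7444, 25977 and 13098 in WT. WT replicate 3 was the highest of all libraries and WT replicate 2 the lowest, and the KO values lay between them. On the log2 scale the groups differed by 0.08 (SE 0.27, 95% interval -0.51 to 0.66; limma adjusted p = 0.95), with 0.42 in the deeper and 0.07 in the shallower libraries, and the difference changed sign without WT replicate 2 (-0.21) or without KO replicate 5 (-0.03). Cfb varied most within WT of the 9 genes, with a coefficient of variation of 52.6% there and 27.1% in KO.

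Tgtp1, an interferon-induced GTPase, was among the 3 genes closest in pattern to Cfb (r = 0.951 after group means were taken off). Among genes listed as inducers of C3, C4b and Cfb, Irf1, an interferon response factor, had a log2 difference of -0.30 (limma adjusted p = 0.55), at 0.0035 in the deeper and -0.55 in the shallower libraries, and Rela and Cebpb had adjusted p = 0.78 and 0.82.

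C3 was closest in pattern to C1s1, the gene of the C1s protease, with r = 0.976 after group means were taken off, and to Sod3, an extracellular superoxide dismutase (0.966). Among the members it had r = 0.702 with Cfb and 0.640 with C4b, and -0.488 with C1qa. The summed level of the 10 fibroblast markers was 320677, 296933, 388369, 333891 and 462447 in KO, against 346524, 275083, 285469 and 207374 in WT. KO replicate 5 was the highest and WT replicate 4 the lowest, as for C3. Of these markers 9 of 10 lay above 0 (median log2 difference 0.32) and 0 passed. The 10 mesothelial markers summed to 8428 to 27589 in KO and 3910 to 12614 in WT, with 10 of 10 above 0 (median 1.29), 0 passing and none at the floor throughout. At an unadjusted p under 0.05 in limma, 7 of the 10 mesothelial and 4 of the 10 fibroblast markers were higher in KO, against 5.37% of all genes. Their part in the C3 and C4b differences was not tested.

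Cfp, which encodes properdin, lies on chromosome X from 20925454 to 20931555. It had 39584, 32087, 32023, 37679 and 38271 normalized counts in KO, against 32129, 32802, 31952 and 31333 in WT. The WT libraries had a coefficient of variation of 1.89%, and the KO libraries fell into 3 above WT and 2 among WT. The log2 difference was 0.16 (SE 0.08, 95% interval -0.01 to 0.33; limma adjusted p = 0.57), at 0.12 in the deeper and 0.27 in the shallower libraries. Neutrophils also make properdin: the 9 measured neutrophil markers summed to 2578 to 4339 in KO and 1993 to 3023 in WT, with 6 of the 9 under a mean of 100, and their part was not tested. Slc17a9, a vesicular nucleotide transporter, was closest in pattern to Cfp (r = 0.994).

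C3ar1, the receptor for C3a, lies on chromosome 6 from 122847138 to 122856161. It had 71490, 83343, 83344, 77034 and 68493 normalized counts in KO, against 90129, 80734, 67863 and 84112 in WT. The KO range lay wholly inside the WT range. Its log2 difference came to -0.07 (SE 0.09, 95% interval -0.26 to 0.12; limma adjusted p = 0.84), at -0.12 in the deeper and -0.14 in the shallower libraries.

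C5ar1, the receptor for C5a, lies on chromosome 7 from 16246743 to 16259540. It had 94865, 92725, 105648, 109395 and 92855 normalized counts in KO, against 85004, 97073, 82313 and 98260 in WT. KO replicates 3 and 4 were above all WT libraries and the other 3 lay among them. The log2 difference was 0.13 (SE 0.08, 95% interval -0.04 to 0.29; limma adjusted p = 0.65), at 0.14 in the deeper and 0.05 in the shallower libraries. The intervals hold changes of both signs for both receptors, and the largest change they hold is a log2 difference of 0.29. The closest pattern to C5ar1 was that of Cr1l (r = 0.951), which encodes Crry, the rodent inhibitor of C3 activation on cell surfaces, and the closest to C3ar1 was that of Lancl1 (0.954). Mast cells can carry both receptors: 10 mast cell markers summed to 1946 to 3756 in KO and 6396 to 11208 in WT, with 4 of 10 called lower (0.127% of all genes were), and their part was not tested.

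Per kilobase of exon, C1qb stood far above the other 8 genes in the whole sorted fraction. It had 181156 ± 27164 normalized counts per kilobase in KO libraries, against 209013 ± 18258 in WT libraries (SD, n = 5 and 4), the first place in each of the 9 libraries. C5ar1 followed with 38559 ± 3054 in KO libraries, against 35277 ± 3181 in WT libraries, then C1qa with 24275 ± 3781 in KO libraries, against 34027 ± 2927 in WT libraries. C5ar1 and C1qa were apart in KO and overlapped in WT. Cfp, C1qc and C3ar1 came next and changed places between libraries (Cfp stood above C1qa in KO replicate 1), with group means between 17331 and 20696 in KO and between 18464 and 22532 in WT. C3, Cfb and C4b took the last places in that order in each of the 9 libraries, with 11781 ± 2307, 5211 ± 1415 and 2640 ± 674 in KO and 9338 ± 2362, 5280 ± 2777 and 1961 ± 441 in WT. With the longest transcript as length, C1qc, whose exon union is 1931 bases and longest transcript 1203, moved above C1qa, and 6 of the 9 genes kept their place.

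**Figure D4:**
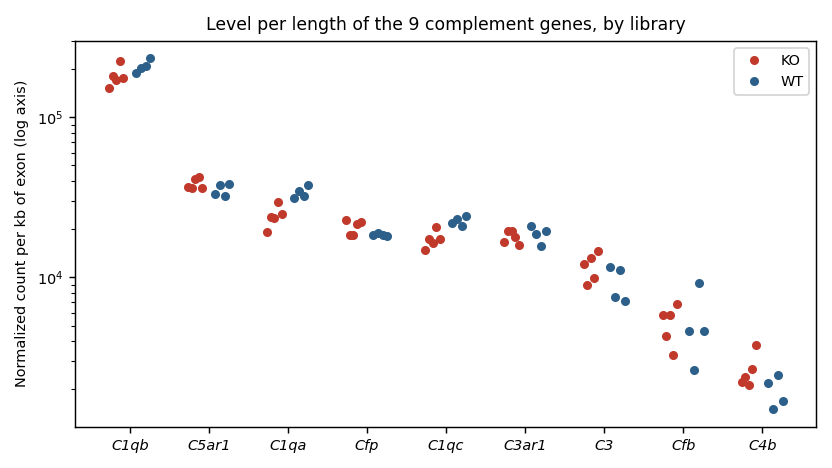
Normalized count per kilobase of exon (log axis) of the 9 complement genes in each library, KO points left of WT points, genes ordered by their mean over all libraries. C1qb is highest in each library, and C3, Cfb and C4b are lowest.

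The wider complement list held 53 further genes, of which 39 were in the table. In limma 1 of the 39 rose in KO, 0 fell and 38 did not pass, against 0.181% of all genes called higher. Their median log2 difference was 0.26, against 0.02 over all genes. Among the 23 with a mean of at least 100 it was 0.18, against -0.00070 over all genes of such means. Of these 23, 14 lay above 0, beside 5675 of the 11383 genes of such means.

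The gene that rose was Fcna, which encodes ficolin A, a pattern-recognition lectin that starts the lectin pathway. It had 2906, 2449, 2035, 4313 and 3788 normalized counts in KO, against 1374, 1119, 488 and 794 in WT. Each KO library lay above each WT library (log2 difference 1.76, SE 0.28; limma adjusted p = 0.013), at 1.18 in the deeper and 2.60 in the shallower libraries. With 1 library left out in turn it passed once in 9 fits, the one without WT replicate 1, with adjusted p between 0.079 and 0.19 in the other 8 and 0.063 in limma-voom. An antisense gene, Fcnaos, overlaps it, and the use of strand in counting is not given in the sources used here.

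Of the proteases that C1q activates, C1ra had 8428 ± 1531 normalized counts in KO libraries, against 6145 ± 1287 in WT libraries (SD, n = 5 and 4). In limma its log2 difference was 0.46, with an adjusted p of 0.29, at 0.27 in the deeper and 0.84 in the shallower libraries. C1s1 had 16117 ± 3481 in KO libraries, against 13889 ± 3585 in WT libraries, a log2 difference of 0.22 at an adjusted p of 0.74 (0.12 deeper and 0.57 shallower). Both differences were positive where those of the C1q chains were negative. Each has a near copy, C1rb and C1s2, with means under 100 in both groups.

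Of 5 terminal pathway genes measured, only C7 had a mean of at least 100. C7, part of the membrane attack complex, had 34227, 30723, 35599, 28686 and 53588 normalized counts in KO, against 32459, 18686, 21543 and 14053 in WT. KO replicate 5 stood far above the rest and WT replicate 1 overlapped KO (log2 difference 0.78, SE 0.20; limma adjusted p = 0.14), at 0.39 in the deeper and 1.62 in the shallower libraries. C6, its partner in the complex, had 131 ± 137 in KO libraries, against 55.1 ± 90.4 in WT libraries (SD, n = 5 and 4; adjusted p = 0.54).

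Among the soluble regulators, 0 of 7 passed. Serping1, the inhibitor of C1r and C1s, had 64831 ± 12112 normalized counts in KO libraries, against 49400 ± 9502 in WT libraries (SD, n = 5 and 4). Its log2 difference in limma was 0.39, with an adjusted p of 0.33, at 0.13 in the deeper and 0.94 in the shallower libraries. Clu, which encodes clusterin, a blocker of the membrane attack complex, had 12113, 4447, 12676, 5625 and 15388 in KO, against 6812, 4480, 5715 and 4027 in WT. KO replicates 1, 3 and 5 were above all WT libraries, and the same 3 had the highest mesothelial marker sums, 27589, 26985 and 26977, against 8428 and 11938 in the other KO libraries (Clu log2 difference 0.81, SE 0.30; adjusted p = 0.39; 0.51 deeper and 1.68 shallower); the part of these cells was not tested. Cfi, the protease that inactivates C3b and C4b, was at the floor in each library but KO replicate 5, where it had 176.

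On the membrane side, 0 of 5 regulators passed. Cd59a, which encodes a block on the membrane attack complex, had 2571, 2337, 1406, 1295 and 2951 normalized counts in KO, against 1063, 1218, 554 and 270 in WT. The ranges were apart (log2 difference 1.59, SE 0.39; limma adjusted p = 0.11), at 0.68 in the deeper and 2.93 in the shallower libraries. Endothelial and stromal cells carry CD59 too, and 12 endothelial markers summed to 5177 to 9626 in KO and 2139 to 4806 in WT, all 12 above 0 and 0 passing. Of these 12, 6 were higher in KO at an unadjusted p under 0.05 in limma, against 5.37% of all genes. The part of these cells was not tested. Cd55, decay-accelerating factor, differed by 0.30 (adjusted p = 0.67; 0.05 deeper and 0.82 shallower), and Cr1l by -0.11 (adjusted p = 0.78). Cd59b, a close copy of Cd59a, had means under 100 in both groups.

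Of 14 receptor genes 0 passed, and their median log2 difference was -0.04. Lair1, an inhibitory receptor for collagen and C1q, had 16308, 13356, 16231, 12357 and 12739 normalized counts in KO, against 15631, 13903, 21917 and 21813 in WT. WT replicates 3 and 4 were the highest, and the difference was -0.03 in the 6 deeper libraries and -0.78 in the 3 shallower ones (pooled -0.35, SE 0.14; limma adjusted p = 0.44). Itgam, which also forms complement receptor 3 and was used in the sort, differed by 0.18 (adjusted p = 0.52; 0.24 deeper and -0.03 shallower), and Calr, calreticulin, which binds C1q, by -0.06 (adjusted p = 0.82; 0.04 deeper and -0.22 shallower). Cfd, which encodes the adipocyte protease adipsin that cleaves factor B, had 67.1 ± 18.1 in KO libraries, against 24.8 ± 35.9 in WT libraries (SD, n = 5 and 4; adjusted p = 0.43), with WT replicates 2 and 4 at the floor. The 8 adipocyte markers summed to 41676 to 56918 in KO and 45614 to 66839 in WT. Most of this sum came from Fabp4 (44516 ± 5518 in KO libraries and 54166 ± 9248 in WT libraries). Adipoq, also on this list, had means under 100 in both groups. Plin1 was at the floor in each library but KO replicate 4, where it had 61.2. Genes induced by tissue dissociation summed to 188295 to 260190 in KO and 151830 to 204136 in WT. In limma 9 of 10 lay above 0 and 0 passed, and 7 of the 10 were higher at an unadjusted p under 0.05, against 5.37% of all genes. Their part in the complement values was not tested.

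**Figure D5:**
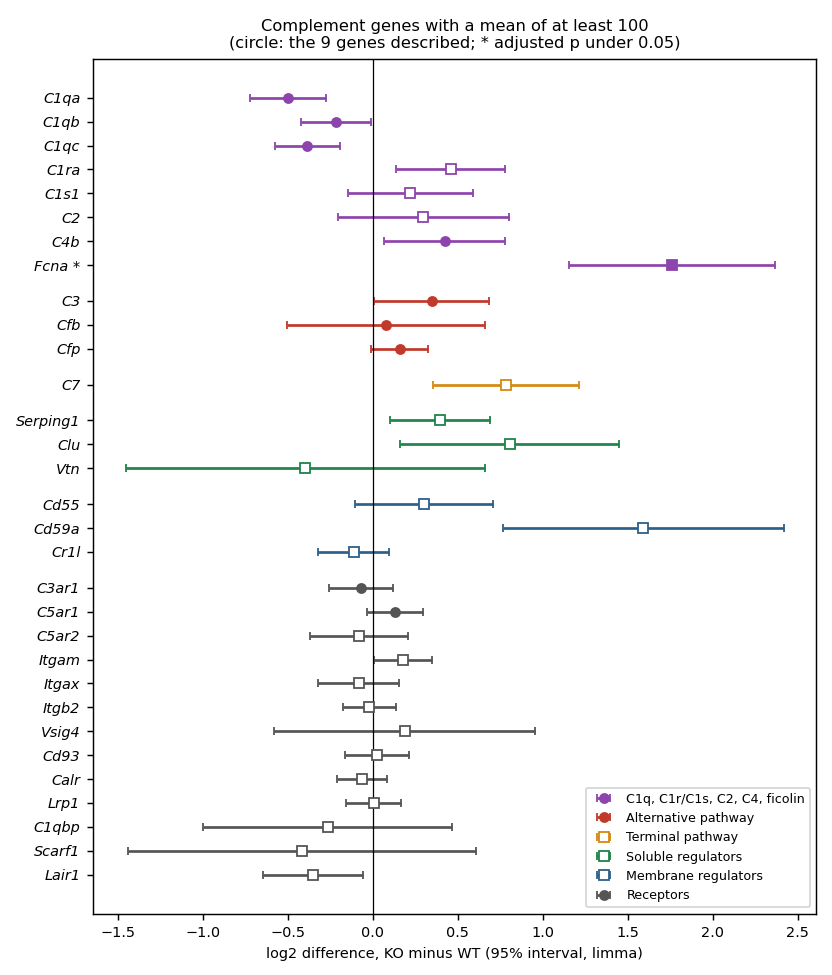
log2 difference of KO minus WT with its 95% interval from limma, for 31 complement genes with a mean of at least 100, grouped by role from top to bottom (circles are the 9 genes described, squares the others, a star marks an adjusted p under 0.05). The 3 C1q chains lie left of 0, C3 and C4b right of it, and Fcna is the 1 starred gene.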

How the data were processed

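The table deposited by the authors holds a linear signal for each gene, which reads as counts over a library's own factor with a floor of 1: between 99.5% and 99.7% of values above 1 were whole multiples of 1 step per library (tolerance 0.1 of a step). Tools listed in the submitters' processing notes, without roles, are HISAT, Partek, DESeq2 and CASAVA 1.8.2, with mm10 as build; the annotation, the counting of reads and the gene filter were not stated there. Because of the floor, the original counts could not be rebuilt in full and no negative binomial test was used; limma-voom on the rebuilt reads was an alternative only.

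The main test was limma 3.58.1 (R 4.3.3) on log2 of the value plus 1, with a mean-variance trend, all 9 libraries, KO against WT with no covariate, and p adjusted by Benjamini-Hochberg across 14905 genes. It was also run on simulated counts with known changes, in which libraries of a group differed only by depth and random draws. The outcome of that run is not reported here. Lengths and positions came from GENCODE M21 (mm10). Marker genes, pathway lists and the 9 genes were chosen with earlier results of these data known. Named were the 9 genes, Nucb2, each role's called genes and up to 4 further genes of smallest p, and for each member the 3 closest patterns (mean at least 100), of which not all are printed; some genes are not reported here. C1s1, C4a, C1rb, C1s2, Fcgr1, Dcn, Vsig4, Adgre1 and Lep were added after their values were seen. Alternatives were pseudocounts of 0.1 and 10, filters, rescalings, weights, robust moderation, the replicate block, depth class, limma-voom and each library left out. SciPy 1.17.1 gave the exact test and matplotlib 3.10.9 the figures.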

Additional observations from a re-analysis of the deposited data

Results flagged for a closer look

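A single library stood apart from the others of its group in 3 of 66 groups examined, over 33 genes (Nucb2 and the complement genes with a mean of at least 100); chance flags about 1 in 20 groups. C7 had 53588 normalized counts in KO replicate 5, against 28686 to 35599 in the other KO libraries. Cd55 had 1469 in WT replicate 4, against 2100 to 2207 in the other WT libraries. Vsig4, the complement receptor of resident macrophages, had 4102 in WT replicate 1, against 801 to 1241 in the other WT libraries. None of the 9 complement genes described first had such a library.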

How the results depend on the processing

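The directions of C1qa, C1qb, C1qc, C3, C4b, Cfp, C3ar1 and C5ar1 were the same in all 22 alternatives, and the exception was Cfb, which was -0.034 with the replicate block, -0.034 without KO replicate 5 and -0.21 without WT replicate 2 (range over libraries left out -0.21 to 0.39). Members called were 1 with robust moderation, where C1qa passed (log2 difference -0.50, adjusted p = 0.038), and 0 in the other 21; over the alternatives its adjusted p lay between 0.038 and 0.64. Complement genes called (1, Fcna) were 2 with robust moderation, 0 with the replicate block, 0 in the 6 deeper libraries alone, 0 with limma-voom and 0 to 1 with 1 library left out. All genes called (46) were 0 with the replicate block (1104 at an unadjusted p under 0.05), 0 in the 6 deeper libraries (1039) and 5 to 38 with 1 library left out. Nucb2 was -1.58 with the replicate block (adjusted p = 0.052) and -1.61 in the 6 deeper libraries (0.12). The replicate block used the 8 libraries whose numbers occur in both groups, which leaves out KO replicate 5. Its log2 differences therefore equal those without KO replicate 5, and for direction these settings are not separate checks. The labels do not say whether same-numbered libraries were paired. Their deviations from group means correlated between -0.014 and 0.045, and 3 of 8 libraries correlated best with their own number. With so few pairs, these values cannot decide whether the libraries were paired. With Spearman's rho, 6 of the 27 closest genes were again among the closest. Causes were not tested. With 5 and 4 libraries, the 95% interval of C1qb still held changes near 0 and that of Cfb both signs.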
